A study of Capra hircus with 2 samples.

Results

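IFT57 and ARL6 are genes of the primary cilium, and they are described here by their rows in a single-cell table of goat ovarian granulosa cells. They were chosen by name and make up 2 of the 154 complete gene rows. Granulosa cells are the somatic cells around the oocyte. The study compared Ji'ning grey goats of high fertility, bearing more than 3 kids per birth, with goats of the same breed of low fertility, bearing fewer than 2. Each group is 1 droplet library, of 7106 cells for high and 3345 cells for low fertility, and neither the age of the goats, nor how many gave cells to each library, nor the follicles sampled is stated in the labels.

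A primary cilium is a microtubule-based projection that many cells grow from the mother centriole and use to receive signals, Hedgehog among them. Primary cilia have been described on granulosa cells. IFT57 is a subunit of intraflagellar transport complex B, the particle that kinesin carries along the cilium with building material. ARL6, also known as BBS3, is a small GTPase that in its GTP-bound form recruits the BBSome, the coat that moves membrane proteins out of the cilium. Loss of ARL6 is a cause of Bardet-Biedl syndrome.

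The deposited values gave back whole unique molecular identifiers (UMIs, each standing for 1 captured transcript), so levels are given as CPM, the UMIs of a gene scaled to 1000000 UMIs of the library. The libraries held 63769786 UMIs for high and 45674506 UMIs for low fertility. The median cell held 7214.5 and 11080 UMIs. The libraries shared 27 cell barcodes, none with the same total in both. With 1 library per group no test between groups is possible, and the 95% intervals below cover counting error only. Of the 55 cell type markers listed for this work, 6 have a row (CCDC80, COL8A1, SAMSN1, CD96, CD80 and UPK1B), and none of these marks granulosa cells, so the labelled cell type could not be checked here.

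The rows of the pair differed widely in level. IFT57 was read by 4361 UMIs at high and 2827 UMIs at low fertility, whereas ARL6 was read by 7 UMIs at high and 0 at low fertility. The level of IFT57 was 68.4 CPM (66.4 to 70.4) at high and 61.9 CPM (59.6 to 64.2) at low fertility, rank 16 of 154 in both libraries. ARL6 stood at 0.110 CPM (0.0441 to 0.226) in the high fertility library, rank 151. In the high fertility library there were 623 IFT57 UMIs for each ARL6 UMI. These UMIs count 3' ends of transcripts and are not scaled by length, and how well each gene's 3' end is annotated was not assessed.

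ARL6 was at the edge of detection. It was found in 7 of the 7106 high fertility cells (0.0985%, exact 95% interval 0.0396% to 0.203%). It was found in 0 of the 3345 low fertility cells, which by the floor of 3 UMIs allows a share of cells with a UMI of up to 0.0897% and a level of up to 0.0657 CPM. The exact intervals, as used for the high fertility library, end at 0.110% and 0.0808 CPM. The level of the high fertility library was 1.67 times that floor of 3 UMIs. This leaves out the counting error of the 7 UMIs, and the exact interval of the ratio high over low began at 1.03. At the level of the high fertility library, 5.01 ARL6 UMIs would have been expected in the low. Without cells above 15000 UMIs, 4 UMIs remained and the ratio to the floor was 0.598, which gives no direction. In all, 5 of the 154 rows had no UMI in the low fertility library and 0 rows had none in the high.

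Each of the 7 cells held 1 ARL6 UMI, and their depths ran from 3554 to 36642 UMIs. The totals were 3554, 6497, 9582, 13816, 17240, 20227 and 36642 UMIs. In that order the cells held 0, 0, 0, 1, 0, 3 and 3 UMIs of IFT57. The pair was thus seen together in 3 cells, where 3.45 were expected from the detection of each gene among cells of like depth, a ratio of 0.871 (0.180 to 2.54). At this depth neither an excess nor a shortage of joint cells was detectable. In the low fertility library co-detection could not be computed. As CPM, ARL6 in cells above 15000 UMIs was 0.960 times that in cells below 5000 UMIs (0.0771 to 50.4, on 3 and 1 UMIs), so a dependence on depth was not detectable. No row reached 50 expected UMIs in these 7 cells, the minimum set for co-variation, and no row was called as varying with ARL6. Of the marker genes, UPK1B, listed for surface and ciliated epithelium, had 1 UMI in these cells against 0.0223 expected (ratio 44.9, 1.07 to 286), a ratio that rests on 1 UMI in 1 cell. The other 5 had 0, with 5.01 expected for CCDC80. In the cells with UPK1B, 29 at high and 23 at low fertility, IFT57 was at 1.35 (0.882 to 1.99) and 0.839 (0.556 to 1.22) of the expected level.

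IFT57 was slightly higher at high fertility, and the direction did not hold in all settings. The CPM ratio high over low was 1.10 (1.05 to 1.16). Among the 44 rows with 10 CPM or more in either library, the interval lay above 1 in 65.9% and below 1 in 20.5%, and the median ratio was 1.14. Relative to the median ratio of the 18 rows with at least 50 CPM in both, 1.12 (0.16 on the log2 scale), IFT57 stood at 0.986 (0.941 to 1.03). Without cells above 15000 UMIs its ratio was 0.982 (0.922 to 1.05). On the deposited natural log scale the means were 0.357 ± 0.518 (SD over 7106 cells) and 0.347 ± 0.478 (SD over 3345 cells).

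Besides the pair, the genes of these lists described here are CFAP298, CEP97, BOC and GSK3B. CFAP298, a protein needed for motile cilia, stood at 73.4 and 62.4 CPM, a ratio of 1.18 (1.12 to 1.23). CEP97, which with CCP110 caps the centriole and restrains cilium formation, stood at 1.18 and 0.832 CPM, and its ratio of 1.41 (0.945 to 2.15) was not distinguishable from 1 at this depth.

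From the Hedgehog list, the co-receptor gene BOC was nearly as scarce as ARL6. It had 9 and 7 UMIs, or 0.141 and 0.153 CPM. GSK3B, a kinase that phosphorylates GLI proteins among many other substrates, stood at 27.1 and 23.3 CPM, a ratio of 1.17 (1.08 to 1.26). Relative to the median of abundant rows, GSK3B stood at 1.04 and CFAP298 at 1.05.

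**Figure D1:**
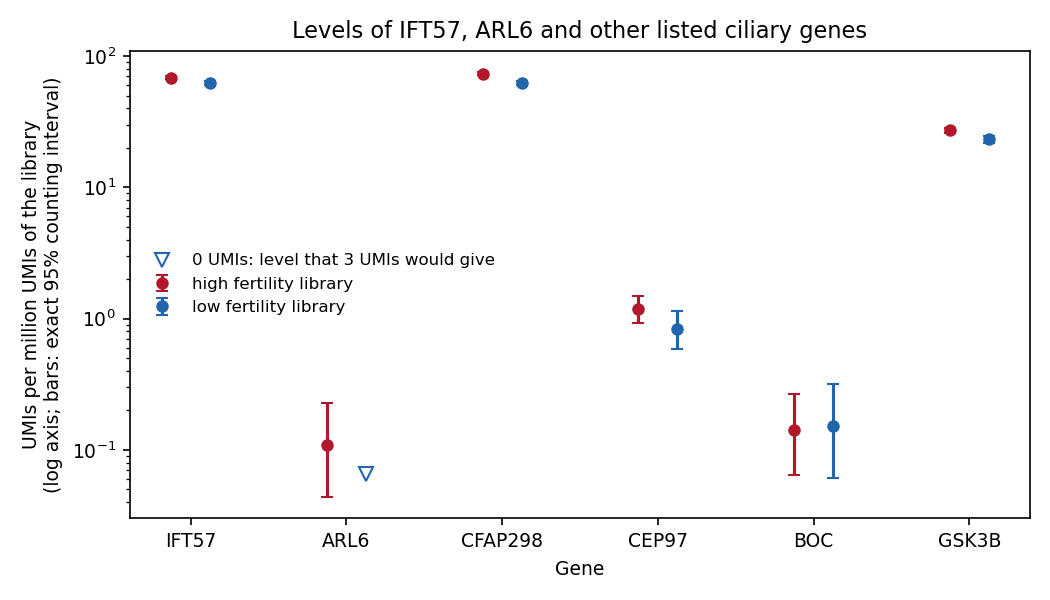
Level of IFT57, ARL6 and 4 other listed ciliary genes in CPM on a log axis, 1 point per library with its exact 95% counting interval; the open triangle marks the 0.0657 CPM that 3 UMIs would give where ARL6 had 0. IFT57 lies between 61.9 and 68.4 CPM, near CFAP298, while ARL6 lies near BOC at the bottom.

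A larger share of low than of high fertility cells held an IFT57 UMI, and the order turned once depth was equalised. IFT57 was detected in 37.3% of the high fertility cells (36.2% to 38.4%) and 42.5% of the low fertility cells (40.8% to 44.2%). When each cell was reduced to 2000 UMIs, the expected shares were 12.3% and 11.3%, leaving out 209 and 132 shallower cells. For CFAP298 the order turned too: the shares were 42.1% and 47.9%, and thinned to 2000 UMIs they were 13.5% and 11.9%.

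Most cells with IFT57 held 1 UMI of it. In the high fertility library 1682 cells held 1 UMI, 564 held 2, 224 held 3 and 181 held 4 or more, with a maximum of 12. In the low fertility library the numbers were 772, 329, 158 and 163, with a maximum of 16. Cells without IFT57 were more frequent than an even level at each depth would give. They made up 62.7% of the high fertility cells against 58.7% expected from a Poisson distribution within 20 depth bins. In the low fertility library they made up 57.5% against 49.8%.

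The ratio of observed to expected empty cells was 1.07 at high and 1.16 at low fertility. Its median over the 44 rows was 1.04 and 1.05, and IFT57 ranked 15 and 13 among them. In a narrower range of level around IFT57, it ranked 7 of 22 rows at high and 6 of 20 rows at low fertility. The median ratio there was 1.03 and 1.06. Above 15000 UMIs, the variance of IFT57 UMIs over their mean was 1.77 in 839 high fertility cells and 2.90 in 984 low fertility cells. Depth also varies among these cells.

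As CPM, IFT57 was even across depth in the high fertility library and uneven in the low. In the 8 depth classes of the high fertility library its level ran from 63.1 CPM (57.0 to 69.6) at 30000 UMIs or more to 73.2 CPM (68.7 to 78.0) at 10000 to 15000 UMIs. In the low fertility library it was 31.7 CPM (17.8 to 52.3) below 2500 UMIs and 78.6 CPM (70.7 to 87.1) at 7500 to 10000 UMIs. It was lower again, at 45.1 CPM (40.4 to 50.3), at 20000 to 30000 UMIs, and stood at 61.3 CPM (56.7 to 66.2) above that. CFAP298 in the low fertility library was also low at 20000 to 30000 UMIs, at 52.3 CPM (47.2 to 57.8). Below 2500 UMIs it was not, at 95.2 CPM (69.5 to 127). GSK3B stood at 26.4 CPM (22.8 to 30.3) and 23.3 CPM (11.6 to 41.6) in these classes.

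A comparison of the ends alone did not show this shape. IFT57 in cells above 15000 UMIs was 1.02 times (0.913 to 1.14) the level below 5000 UMIs at high fertility and 1.199 times (0.952 to 1.53) at low fertility. Among the 44 rows, the interval of this ratio lay above 1 in 20.5% and below 1 in 40.9% in the high fertility library. In the low fertility library it lay above 1 in 4.55% and below 1 in 25%.

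The libraries differed most at the classes where the low fertility library was low. Below 2500 UMIs the IFT57 ratio high over low was 2.18 (1.21 to 4.18), on 51 and 15 UMIs. At 20000 to 30000 UMIs it was 1.56 (1.35 to 1.80), on 452 and 334 UMIs. At 7500 to 10000 UMIs it was 0.879 (0.776 to 0.997). Of the 8 classes, the interval lay above 1 in 3 and below 1 in 1. The ratio of CFAP298 at 20000 to 30000 UMIs was likewise above 1, at 1.45 (1.26 to 1.66). Below 2500 UMIs it was 0.871 (0.583 to 1.31). Its interval lay above 1 in 3 of the 8 classes and below 1 in 0. For GSK3B the ratio at 20000 to 30000 UMIs was 1.19 (0.975 to 1.46).

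SAMSN1 is an adaptor gene of blood cells. Its level at high fertility fell with each deeper class, from 69.3 CPM below 2500 to 0.963 CPM at 30000 UMIs or more. In the low fertility library it fell from 55.0 to 3.45 CPM between the same ends, but not at each step. At low fertility, cells with a SAMSN1 UMI made up 8.13% below 2500, 10.3% at 7500 to 10000 and 19.4% at 20000 to 30000 UMIs, a share that also depends on depth. The SAMSN1 level in these classes was 55.0, 22.1 and 18.4 CPM. In the high fertility library these cells made up 8.26% at 7500 to 10000 and 7.87% at 20000 to 30000 UMIs. Without them IFT57 in the low fertility library stood at 51.8 CPM (46.2 to 57.9) at 20000 to 30000 and at 86.3 CPM (77.5 to 95.7) at 7500 to 10000 UMIs. The part of such cells in the pattern was not tested further.

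**Figure D2:**
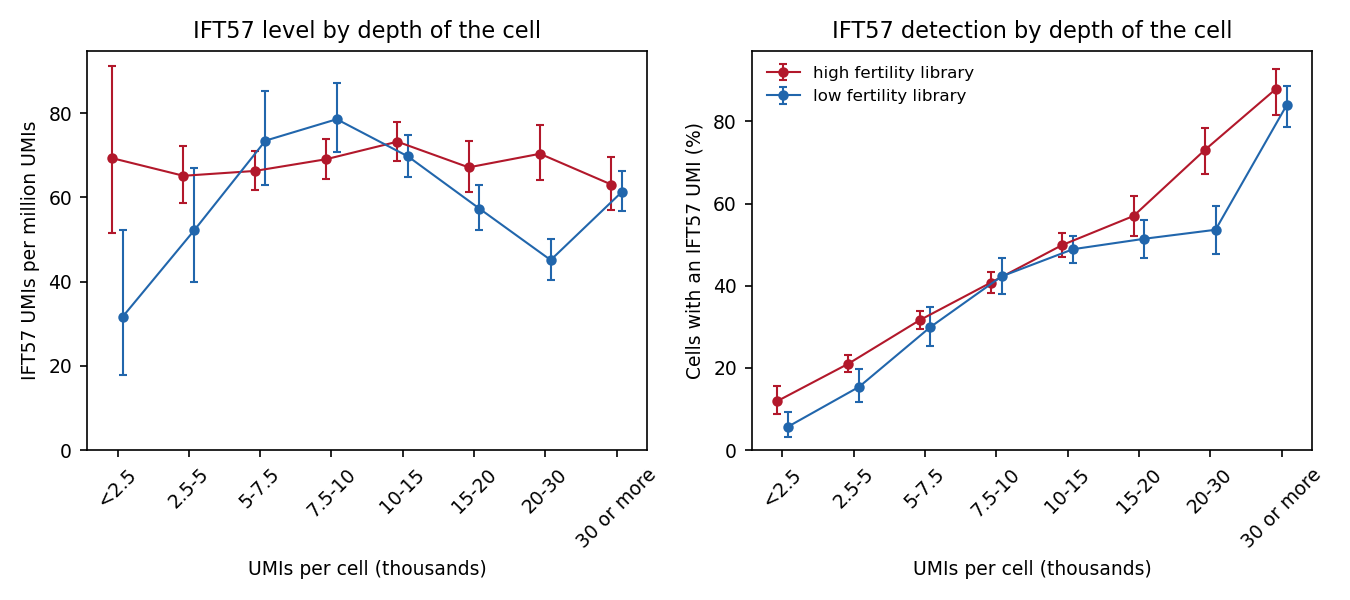
IFT57 by depth of the cell, as CPM (left) and as percent of cells with an IFT57 UMI (right), in 8 classes of UMIs per cell for each library with exact 95% counting intervals. Detection is higher in each deeper class, up to 87.9% and 84.0%, while the level of the low fertility library peaks at 78.6 CPM and dips to 45.1 CPM.

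Cells with and without IFT57 differed in other genes. UMIs of each other row in cells with an IFT57 UMI, 2651 at high and 1422 at low fertility, were set against those expected from cells without one among cells of like depth. A row was counted where the interval of this ratio left out 1 in the same direction in both libraries. Of 75 rows with at least 50 expected UMIs in both, 16 (21.3%) were higher and 11 (14.7%) lower in cells with IFT57. The median ratio over the 75 rows was 1.03 at high and 1.02 at low fertility. For 1 row, HSPA13, the intervals pointed in opposite directions.

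Among the ciliary genes, CFAP298 was higher in cells with IFT57. It was 1.18 times (1.09 to 1.27) the expected level at high and 1.30 times (1.17 to 1.45) at low fertility. GSK3B was at 0.973 (0.862 to 1.10) and 1.247 (1.05 to 1.49), and so was not counted. CEP97 had fewer than 50 expected UMIs and stood at 0.718 (0.401 to 1.253) and 0.691 (0.335 to 1.34).

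Counted as cells, the excess of co-detection among these genes was smaller at matched depth. IFT57 and CFAP298 were seen together in 1408 high fertility cells. This was 1.26 times the number expected without regard to depth, but 1.07 times (1.01 to 1.13) the 1318 expected at matched depth. In the low fertility library they were seen together in 892 cells, 1.31 times and, at matched depth, 1.12 times (1.04 to 1.19) the expected number. For IFT57 and GSK3B the matched ratios were 1.03 (0.957 to 1.11) on 678 cells and 1.11 (1.01 to 1.21) on 460 cells. For IFT57 and CEP97 they were 0.839 (0.562 to 1.21) on 29 cells and 0.784 (0.439 to 1.29) on 15 cells.

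The rows most raised in cells with IFT57 were COL8A1, DCBLD2, CBLB, PROS1 and FILIP1L. COL8A1, a chain of type VIII collagen, was 2.29 times (1.79 to 2.93) the expected level at high and 2.53 times (1.51 to 4.22) at low fertility. DCBLD2, a transmembrane protein, was at 1.59 and 2.42, and CBLB, a ubiquitin ligase, at 1.56 and 1.74. PROS1, which encodes protein S, was at 1.54 and 1.65, and FILIP1L, a filamin A interacting protein, at 1.503 and 2.02. Without cells above 15000 UMIs, FILIP1L was no longer counted, at 1.23 (1.08 to 1.40) and 1.31 (0.952 to 1.79), and COL8A1 had fewer than 50 expected UMIs. In that setting 14 of 55 rows were higher, of which 11 were among the 16. COL8A1 had 54.2 expected UMIs at low fertility, near the minimum of 50. With 8 fixed depth classes as bins, 74 rows were compared and COL8A1 was not among them. Its CPM in cells above 15000 UMIs was 5.32 times (3.46 to 8.60) that below 5000 UMIs at high fertility. At low fertility it was 3.82 times (1.04 to 31.9). The part of depth differences within bins in its ratio was not tested. Across cells, the residuals of PROS1 and IFT57 at matched depth had a Pearson r of 0.121 over 7106 high fertility and 0.187 over 3345 low fertility cells of 1 library each. Of COL8A1, DCBLD2, CBLB, PROS1 and FILIP1L, PROS1 had the highest r in both libraries. For COL8A1 it was 0.0330 at high and 0.0644 at low fertility. Such values are weak. Most cells hold 0 or 1 UMI of IFT57, and the part of this in the values was not tested.

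COL8A1 and CCDC80 are the listed markers of stroma that have a row, and both were higher in cells with IFT57. CCDC80 was at 1.30 (1.17 to 1.45) and 1.40 (1.13 to 1.75). Read the other way, IFT57 in the 270 high fertility cells with COL8A1 was 1.33 times (1.19 to 1.49) and in the 83 low fertility cells 1.62 times (1.38 to 1.88) the expected level. In cells with CCDC80 it was 0.998 times (0.918 to 1.08) and 1.32 times (1.19 to 1.45). Without cells holding either gene, which takes both out of the comparison, 10 of 67 rows were higher and 10 lower in cells with IFT57, and CFAP298 was at 1.14 and 1.35. The part of a different cell type in these ratios was not tested.

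The rows most lowered in cells with IFT57 were SAMSN1, TIAM1, TMEM50B and a pair without a symbol, ENSCHIG00000015902 and ENSCHIG00000012911. SAMSN1 was at 0.297 (0.246 to 0.355) at high and 0.251 (0.201 to 0.311) at low fertility. TIAM1, an exchange factor for the GTPase Rac, was at 0.291 (0.220 to 0.380) and 0.345 (0.245 to 0.481). TMEM50B, a membrane protein, was at 0.516 and 0.578. ENSCHIG00000015902 was at 0.159 and 0.441, and ENSCHIG00000012911 at 0.627 and 0.647.

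**Figure D3:**
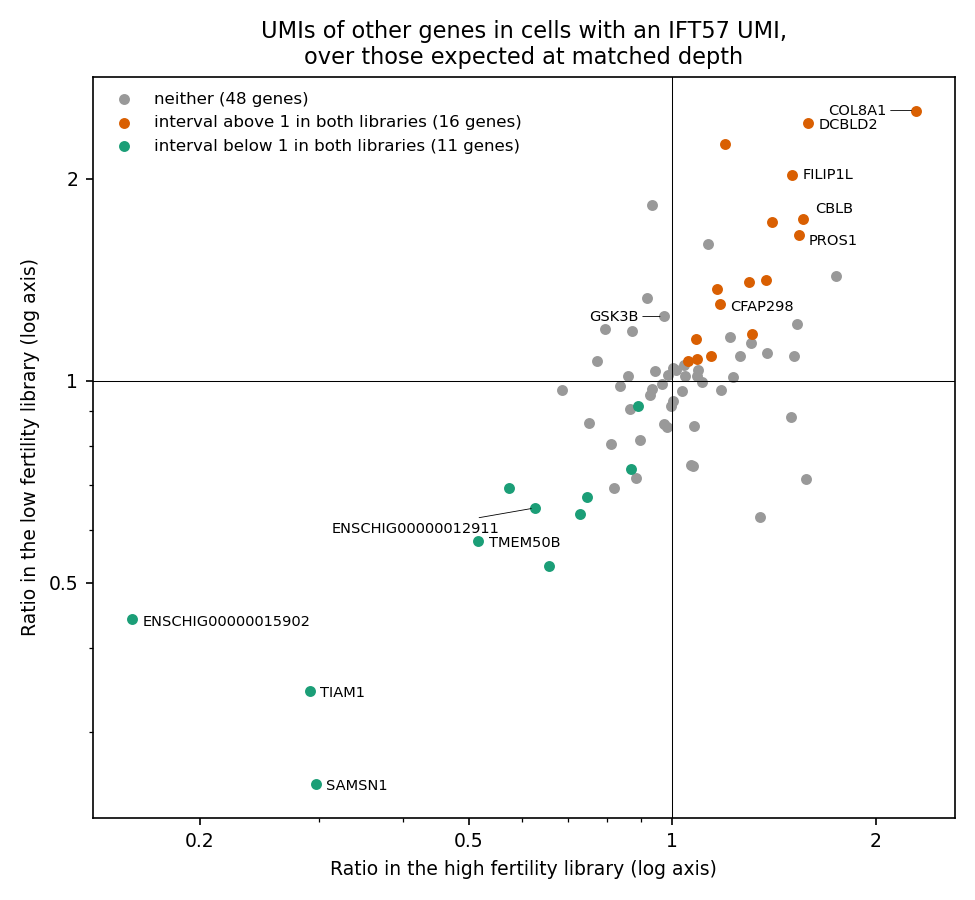
Ratio of observed to expected UMIs of 75 rows in cells with an IFT57 UMI, high fertility library on the x axis and low fertility library on the y axis, both log axes, 1 point per row. The 16 rows raised in both libraries reach 2.53 for COL8A1, and the 11 lowered in both reach 0.159 for ENSCHIG00000015902.

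IFT57 was itself low in cells with SAMSN1. In the 583 SAMSN1 cells at high fertility it stood at 25.9 CPM, 0.355 times (0.296 to 0.423) the level expected at matched depth. In the 366 SAMSN1 cells at low fertility it stood at 21.8 CPM, 0.337 times (0.276 to 0.408). An IFT57 UMI was found in 17.2% (14.2% to 20.5%) and 21.9% (17.7% to 26.4%) of them, at median depths of 7411 and 12071.5 UMIs. No cell class known to lack IFT57 could be named from these rows, so no share due to free RNA can be set beside these. The low level was not particular to IFT57. CFAP298 in the cells with SAMSN1 was at 0.443 (0.379 to 0.515) and 0.426 (0.357 to 0.504) of the expected level. GSK3B was nearer to 1, at 0.823 (0.676 to 0.993) and 0.831 (0.671 to 1.02). The other leukocyte markers with a row were scarce, with 21 UMIs of CD96 in each library and 18 and 11 of CD80. In the 16 high fertility cells with CD96 and the 17 with CD80, IFT57 was at 0.413 (0.112 to 1.06) and 0.291 (0.0599 to 0.850) of the expected level. The 15 low fertility cells with CD96 held 0 IFT57 UMIs against 3.26 expected (ratio 0, 0 to 1.32). In the 11 with CD80 the ratio was 0.319 (0.0385 to 1.15), so both intervals at low fertility included 1.

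Fewer rows were counted when the cells with SAMSN1 were left out. The IFT57 ratio high over low was then 1.08 (1.03 to 1.13). SAMSN1 itself then has no UMIs to compare. Of 72 rows, 6 were lower, all of them among the 11, and 13 were higher, of which 12 were among the 16. CFAP298 was then at 1.11 and 1.26, and TIAM1 at 0.320 and 0.431.

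Of the 10 rows named above for their contrast, 6 lay farther from 1 with each step in the number of IFT57 UMIs in both libraries, 3 in 1 library only and TMEM50B in neither. As these rows were chosen for their contrast, this is a description, and it counts the ratios alone, not their intervals. SAMSN1 was at 0.421, 0.175 and 0.0550 of the expected level in high fertility cells with 1, 2 and 3 or more IFT57 UMIs. In low fertility cells the ratios were 0.401, 0.266 and 0.0221, the last on 4 UMIs observed. Over the same classes COL8A1 was at 1.78, 2.31 and 3.01 at high and at 1.40, 1.87 and 4.39 at low fertility. Its intervals overlapped between neighbouring classes in both libraries. In low fertility cells with 1 IFT57 UMI its interval, 0.835 to 2.31, included 1. CBLB was at 1.19, 1.56 and 2.45 and at 1.44, 1.53 and 2.29, with intervals that overlap between neighbouring classes at low fertility. DCBLD2 at high fertility, at 1.66, 1.37 and 1.66, and FILIP1L at low fertility, at 1.52, 1.26 and 3.996, were lowest in cells with 2 UMIs.

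CFAP298 showed no such steps. It was at 1.18, 1.197 and 1.15 and at 1.27, 1.43 and 1.2501, with intervals that overlap between neighbouring classes.

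**Figure D4:**
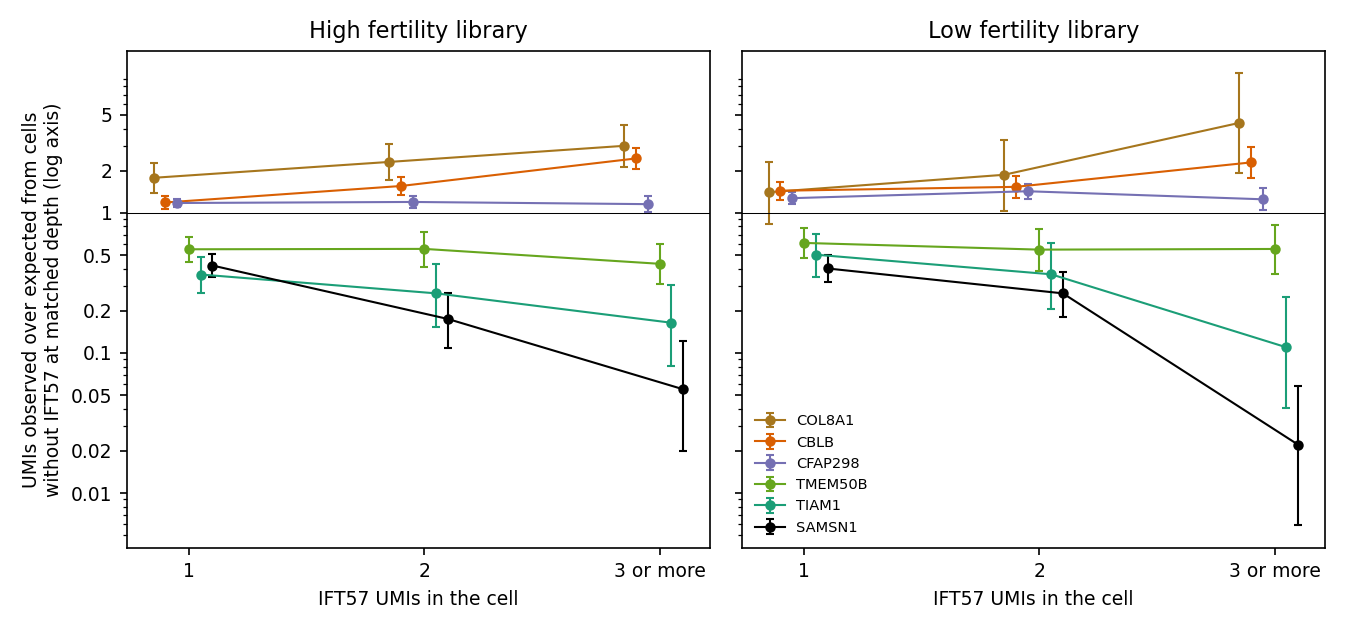
Observed over expected UMIs at matched depth (log axis) of 6 rows in cells with 1, 2 and 3 or more IFT57 UMIs, each set against cells without IFT57, with 95% counting intervals, 1 panel per library. SAMSN1 is lower in each class, down to 0.0550 and 0.0221, COL8A1 is higher in each, up to 3.01 and 4.39, and CFAP298 stays between 1.15 and 1.43.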

How the data were processed

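The authors deposited 1 table of genes by cells on a natural log scale. Cells were dissociated with an enzyme and captured with the V2 chemistry of 10x Genomics, which reads 3' ends, per the labels' protocols. The processing notes of the submitters name Cell Ranger 2.2.0. A genome build, annotation, cell filter or normalizing program is not given in the sources used here. The values equal the natural log of 1 plus 10000 times UMIs over the cell's total. For each cell the smallest whole total was taken that made all values whole within 0.0001, which held for 177610 of 177610 values above 0. The 154 complete rows were used and 1 incomplete row was left out. All 10451 cells were kept, no doublet caller was run and cells were not clustered.

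Depth matching used 20 bins of equal cell number per library. Expected UMIs came from cells without the member in the same bin. Level ratios have exact binomial intervals, and single levels exact Poisson ones. For co-variation the counting error of the expected UMIs was joined to the exact Poisson interval of the observed on the log scale; the interval first planned left it out and called too many unchanged genes in simulated cells. Co-detection intervals are Poisson on the observed cells. The share after thinning is the hypergeometric expectation for 2000 UMIs.

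Genes named are the pair, listed genes with a row (1 of them is not reported here), the 5 rows most raised and the 5 most lowered by the library nearer to 1, and neighbouring rows with a symbol; SAMSN1, CD96, CD80 and CCDC80 are listed markers, and HSPA13 was named after its values were seen. The members and lists were chosen with earlier results of these data known. Alternatives without cells holding SAMSN1, CCDC80 or COL8A1 were added after seeing the data. The RefSeq table of assembly ARS1.2 places IFT57 and ARL6 on chromosome 1; as the build of the files is not named, no coordinates are given. Python 3.11.15, NumPy 2.4.6, SciPy 1.17.1 and Matplotlib 3.10.9 were used.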

Additional observations from a re-analysis of the deposited data

How the results depend on the processing

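The IFT57 ratio high over low, 1.10, turned to 0.982 without cells above 15000 UMIs and to 0.986 when divided by the median ratio of rows with 50 CPM. It stayed above 1 as a mean over cells (1.09), standardised over 8 depth bins (1.07), without cells below 2500 UMIs (1.10), without cells with SAMSN1 (1.08) and without cells with CCDC80 or COL8A1 (1.15). The ratio of ARL6 at high fertility to the floor of 3 UMIs at low fertility, 1.67, was 0.598 without cells above 15000 UMIs. Rows higher in cells with IFT57, 16, of 75, numbered 10 of 67 without cells with CCDC80 or COL8A1 and 6 where the interval had to lie above the reciprocal of 0.8. Rows lower, 11, of 75, numbered 6 of 72 without cells with SAMSN1 and 7 where it had to lie below 0.8. With the interval on observed UMIs alone they numbered 20 and 14. Why these counts differ was not tested, beyond the stricter bound and the fewer cells. No row turned direction under the settings on bins and cells. For ARL6, with 7 and 0 UMIs, the mean over cells was 0.105 CPM and 0 and gave no ratio. A standardised ratio, values for the low fertility library and the screen of co-varying rows with its alternatives could not be had. No paired analysis was possible because there was 1 library for high and 1 for low fertility. No setting stands in for further libraries.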

Other observations

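The row after IFT57 in the table is HHLA2, a gene of the B7 family of immune ligands, which is also its neighbour in the RefSeq table. HHLA2 was scarce, with 24 UMIs at high and 16 at low fertility, and 16 and 15 of these lay in cells with IFT57. Against cells without IFT57 at matched depth the ratio was 3.93 (1.39 to 10.7) at high and 13.3 (1.73 to 101) at low fertility, rank 3 in both libraries among the 140 rows with at least 20 UMIs. In the 14 low fertility cells with HHLA2, IFT57 was 2.53 times (1.80 to 3.46) the expected level, and in the 24 high fertility cells 1.40 times (0.975 to 1.96). CD47, the row before IFT57, was at 1.07 (0.850 to 1.35) and 0.745 (0.574 to 0.965). Whether reads of neighbouring genes can be told apart in this annotation was not tested.

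The values of ENSCHIG00000012599 fall into a low and a high mode, taken here as below and above 2.5 on the deposited scale. All 7 cells with ARL6 lay in the low mode, whose cells hold 47.0% of the UMIs of the high fertility library. CEP97 in that library stood at 1.90 CPM in the low and 0.532 CPM in the high mode, 0.263 times (0.144 to 0.457) the expected level at matched depth; in the low fertility library the ratio was 0.706 (0.340 to 1.42). IFT57 stood at 66.6 CPM in the low and 69.98 CPM in the high mode of the high fertility library. In the low fertility library it stood at 63.9 and 61.2 CPM. At matched depth IFT57 in the high mode was 1.08 times (1.02 to 1.16) the expected level at high fertility. At low fertility it was 0.963 times (0.880 to 1.05). UMIs of ENSCHIG00000012599 were lower in cells with IFT57, at 0.891 (0.881 to 0.901) and 0.917 (0.906 to 0.929). It is 1 of the 11 lowered rows. The splits by mode were chosen after the values were seen.

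The nearest rows with a symbol on either side of ARL6 were NSUN3, with 28 UMIs over both libraries, and MRPS6, with 279.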
